A study of Mus musculus with 32 samples.

Results

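The 10 genes studied here mark cancer-associated fibroblasts and myofibroblasts, and were followed across tumours irradiated with carbon ions or photons. They were the rows of the deposited count table with the symbols Acta2, Tagln, Myl9, Pdgfra, Pdgfrb, Fap, Thy1, Postn, Dcn and Lum, which are 10 of 55103 rows. The symbols were chosen by name and not by a rule on their values, but with earlier results of these data known. All 10 passed the filter on low counts and were tested among 20474 genes.

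Bulk RNA sequencing was done on 32 mouse tumours of KPC36, a cell line; KPC is the usual name of mouse models of pancreatic cancer. The libraries formed 4 groups of 8: untreated controls of the carbon-ion arm, tumours treated with carbon ions, untreated controls of the photon arm, and tumours treated with photons. Carbon ions are charged particles that release most of their energy near the end of their path, and photons are the common form of radiotherapy. Collection took place 4 and 7 days after irradiation; which library belongs to which day, the radiation dose, the host strain and age, the site of implantation and the genotype of the line are not given in the sources used here. Library titles began with D or M, letters whose meaning is not stated. The carbon controls held 4 D and 4 M titles, the carbon-irradiated group 3 D and 5 M titles, and both photon groups only M titles. The labels do not say that each library came from a separate animal, so p-values measure the spread between these libraries.

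Fibroblasts of a tumour are host cells that make and remodel the matrix around the cancer cells. When transforming growth factor beta or mechanical tension acts on them, some take on a contractile state, the myofibroblast, in which smooth muscle genes are switched on through serum response factor, a transcription factor that binds CArG boxes in DNA. Pancreatic ductal carcinoma is known for an abundant stroma of such cells, in which contractile, matrix-making and inflammatory states have been described. In bulk RNA, fewer cells of a type and less RNA per cell cannot be told apart, and the contractile genes are also made by pericytes and vascular smooth muscle. The counts do not separate RNA of cancer cells from RNA of host cells either.

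CArG boxes are shown here because they are the sequence by which the contractile genes are known to be controlled together. The RefSeq promoter table of GRCm38.p6 (250 bases before to 50 bases after a start) held 4 of the 10 genes: Acta2, Myl9, Pdgfra and Postn. Windows were searched for the CArG box and for CArG-like sites, in which 1 of the 6 inner bases is C or G; the pattern reads the same on both strands. Acta2 had 2 CArG-like sites, at 84 to 75 and at 34 to 25 bases before its RefSeq start. Myl9 had a CArG box at 161 to 152 bases and a CArG-like site at 99 to 90 bases before its start. Each site follows 5′ to 3′ on the strand of its gene with 10 bases on either side, and the capitals mark the site.
Acta2, chr19:34255438-34255467, minus strand: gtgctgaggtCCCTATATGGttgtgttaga
Acta2, chr19:34255388-34255417, minus strand: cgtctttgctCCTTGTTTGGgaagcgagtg
Myl9, chr2:156775293-156775322, plus strand: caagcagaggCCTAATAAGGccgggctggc
Myl9, chr2:156775355-156775384, plus strand: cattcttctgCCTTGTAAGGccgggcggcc
The Acta2 sites lie within the first exon and 5′ UTR of a longer GENCODE vM21 transcript of the gene, and the Myl9 sites lie outside annotated exons. The 1 window of Pdgfra and the 2 windows of Postn held no match. Of 32851 promoter windows in the table, 1.629% held a CArG box and 9.984% held a CArG box or a CArG-like site. A match is a description of these letters and shows no binding.

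Library totals ranged from 13891863 to 71645903 estimated counts. Levels are given as CPM, the counts of a gene per 1000000 of the scaled library total. The sample label calls the tissue malignant, and epithelial markers were expressed in every group, with summed CPM medians of 10 genes between 3632 and 4685; all 10 fibroblast genes were also above 0 in every library. Some libraries held skeletal muscle RNA: the summed CPM of 10 muscle genes ran from 1.422 to 3942 over the 32 libraries. Photon control 3 had the highest level of its group for 6 of the 10 genes and photon control 6 the lowest for 7, so calls that are lost without either library are given below.

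Per kilobase of exon, Acta2, the smooth muscle actin that defines the myofibroblast, had the highest median level over all libraries, 98.39 CPM per kb. Postn (periostin, a secreted matrix protein of activated fibroblasts) followed at 80.81, and was below Acta2 in 27 of 32 libraries. Tagln (transgelin, an actin-binding protein) had 49.83 CPM per kb and was below Postn in all 32 libraries. Lum at 31.22 and Thy1 at 27.67 CPM per kb were not ordered in this sense, since Lum was the higher in only 20 of 32 libraries. Pdgfrb, Myl9, Dcn and Pdgfra then followed at 23.66, 19.44, 10.9 and 6.846 CPM per kb, and Fap was lowest at 3.433. Each neighbouring pair other than Lum and Thy1 kept its order in at least 27 of 32 libraries. The length used was that of all annotated exons of a gene together, which may be longer than the transcripts expressed. This order therefore depends on that length. Without division by it, the median was higher for Postn (703.2 CPM) than for Acta2 (216.1 CPM).

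**Figure D1:**
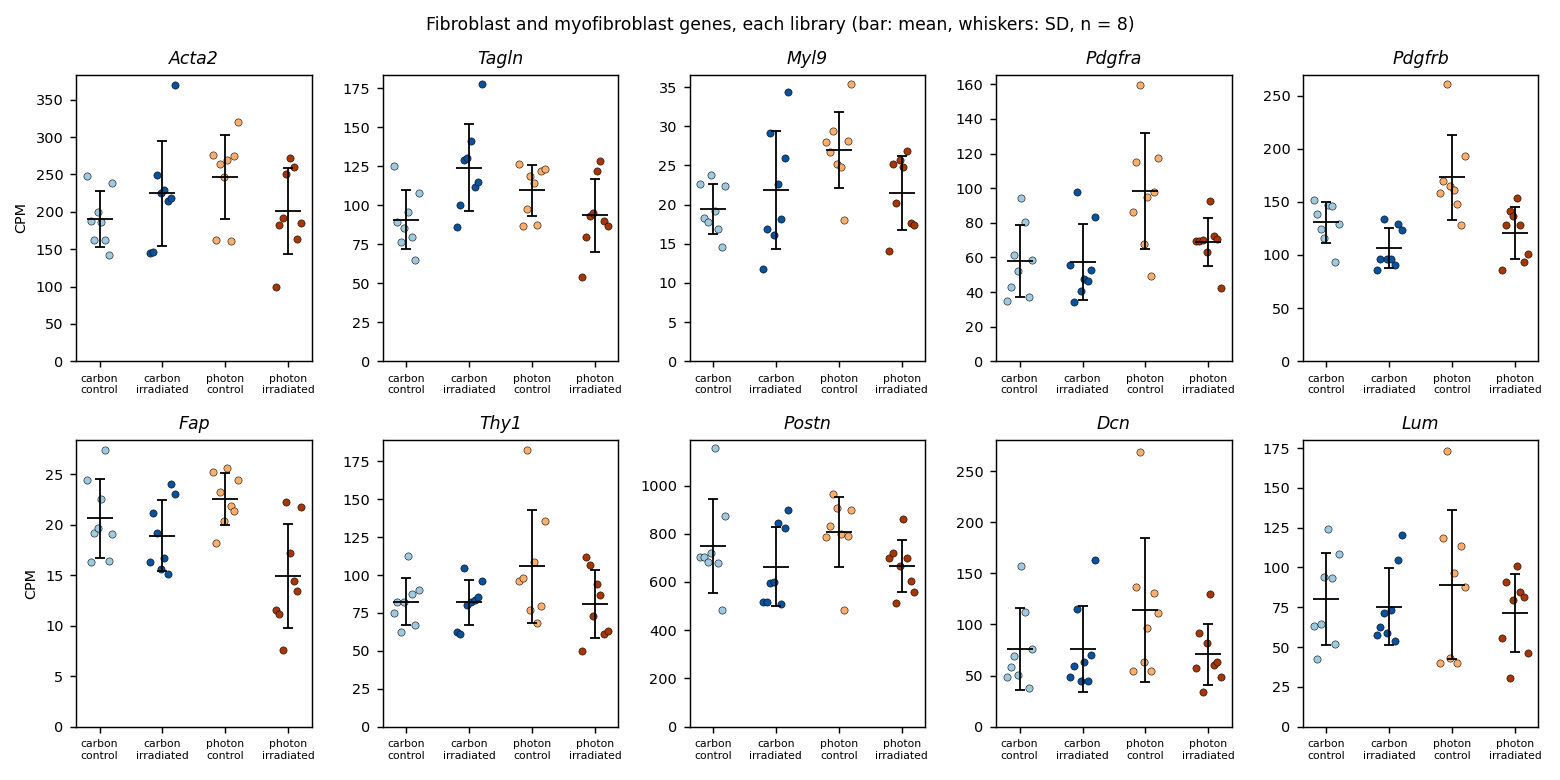
CPM of each of the 10 genes in each library (points, n = 8 per group), with the group mean (bar) and SD (whiskers); each panel has its own linear axis from 0. The groups overlap in every panel, and the photon controls have the highest median for 9 of the 10 genes.

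The photon controls held the highest median CPM for 9 of the 10 genes, Tagln being the exception. After photons the median was lower than in the photon controls for all 10 genes, and the test called Pdgfrb and Fap. After carbon ions the contractile genes had higher medians than their controls, 6 of the 7 other genes had lower medians, Thy1 was at 82.14 and 82.72 CPM, and no gene was called.

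The contractile genes were Acta2, Tagln and Myl9, the last of which encodes a regulatory light chain of smooth muscle myosin. Acta2 (ENSMUSG00000035783, GRCm38 chr19:34241090-34255590, minus strand) ran from 142.1 over a median of 186.7 to 247.5 CPM in the carbon controls, and from 145.0 over 221.7 to 370.2 CPM after carbon ions. In the photon arm it ran from 161.0 over 266.3 to 320.8 CPM in the controls and from 99.62 over 188.3 to 271.6 CPM after photons. The groups overlapped in each arm, although 7 of 8 photon-irradiated libraries were below the photon control median. The log2 fold change of Acta2 was 0.24 with a standard error (SE) of 0.18 for carbon ions and -0.30 with an SE of 0.18 for photons, and neither passed the test (edgeR adjusted p = 0.9961 and 0.3533).

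Tagln (ENSMUSG00000032085, chr9:45929619-45936058, minus strand) overlaps Pcsk7 and an antisense gene on the opposite strand, and how the authors' counting used strand is not given. It ran from 65.0 over 87.34 to 125.1 CPM in the carbon controls and from 86.29 over 122.1 to 177.7 CPM after carbon ions. Of the 8 carbon-irradiated libraries, 7 were above the control median, and the ranges overlapped. The log2 fold change was 0.45 with an SE of 0.15 (unadjusted p = 0.004253), which did not pass after adjustment over all genes (edgeR adjusted p = 0.5214). In the photon arm Tagln ran from 86.98 over 116.6 to 126.6 CPM in the controls and from 54.11 over 91.65 to 128.3 CPM in irradiated tumours. Its photon fold change was -0.23 on the log2 scale (SE 0.15, adjusted p = 0.3817).

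Myl9 (ENSMUSG00000067818, chr2:156775420-156781658, plus strand) ran from 14.55 over 18.76 to 23.75 CPM in the carbon controls and from 11.72 over 20.4 to 34.39 CPM after carbon ions. The carbon-irradiated libraries had both the lower minimum and the higher maximum, and 4 of the 8 were above the control median. In the photon arm it ran from 18 over 27.32 to 35.41 CPM in the controls and from 14.07 over 22.53 to 26.83 CPM after photons. All 8 photon-irradiated libraries were below the control median, with a log2 fold change of -0.33 (SE 0.17, adjusted p = 0.2582).

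The receptors for platelet-derived growth factor, through which fibroblasts and pericytes are recruited and kept alive, are Pdgfra and Pdgfrb. Pdgfrb (ENSMUSG00000024620, chr18:61045150-61085061, plus strand) is the form shared by fibroblasts and pericytes. It ran from 127.8 over 162.8 to 261.0 CPM in photon controls and from 85.99 over 128.5 to 153.2 CPM after photons. All 8 irradiated libraries were below the control median, and the ranges overlapped between 127.8 and 153.2 CPM. Pdgfrb fell, with a log2 fold change of -0.52 (SE 0.13, edgeR adjusted p = 0.02645), a change of -30.08%. In the carbon arm it ran from 92.95 over 134.0 to 152.1 CPM in the controls and from 85.57 over 96.43 to 134.2 CPM after irradiation, where 7 of 8 libraries were below the control median (log2 fold change -0.29, SE 0.13, unadjusted p = 0.03393, adjusted p = 0.7983).

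Pdgfra (ENSMUSG00000029231, chr5:75152292-75198215, plus strand), the receptor form typical of fibroblasts, overlaps an antisense gene and 2 other short annotated genes. It ran from 34.59 over 55.5 to 94.07 CPM in the carbon controls and from 34.09 over 50.1 to 97.88 CPM after carbon ions, ranges that nearly coincide. In the photon controls it ran from 49.32 over 96.52 to 159.4 CPM and after photons from 42.13 over 69.8 to 92.7 CPM. All 8 photon-irradiated libraries were below the control median, but the fold change of -0.52 on the log2 scale (SE 0.22) did not pass (adjusted p = 0.1643).

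Fap encodes fibroblast activation protein, a surface protease of activated stromal fibroblasts, and Thy1 a surface glycoprotein of fibroblasts that mouse T cells carry too. Fap (ENSMUSG00000000392, chr2:62500943-62574075, minus strand) ran from 18.21 over 22.56 to 25.65 CPM in photon controls and from 7.572 over 13.95 to 22.28 CPM after photons. All 8 irradiated libraries were below the control median, and the ranges overlapped between 18.21 and 22.28 CPM. Fap fell by 0.59 on the log2 scale (SE 0.16, edgeR adjusted p = 0.03217), a change of -33.65%. In the carbon arm it ran from 16.29 over 19.4 to 27.42 CPM in the controls and from 15.14 over 17.98 to 24.07 CPM after irradiation (log2 fold change -0.13, SE 0.16, adjusted p = 0.9971).

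Thy1 (ENSMUSG00000032011, chr9:44043384-44048579, plus strand) ran from 62.34 over 82.14 to 112.6 CPM in the carbon controls and from 61.36 over 82.72 to 104.8 CPM after carbon ions. In the photon controls it ran from 68.43 over 97.02 to 182.6 CPM and after photons from 49.84 over 79.87 to 111.9 CPM. The groups overlapped in both arms, with 6 of 8 photon-irradiated libraries below the control median (log2 fold change -0.39, SE 0.17, adjusted p = 0.1847). The T cell marker Cd3e was between 0.103 and 2.149 CPM over all libraries, and its median was 1.179 CPM in photon controls and 0.4602 CPM after photons; its part in the Thy1 values was not tested.

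The secreted genes were Postn, Dcn and Lum; the last pair encode decorin and lumican, small proteoglycans that bind collagen fibrils and are neighbours on chromosome 10. Postn (ENSMUSG00000027750, chr3:54361109-54391037, plus strand) ran from 485.6 over 703.2 to 1156 CPM in the carbon controls and from 510.1 over 598.5 to 897.7 CPM after carbon ions. In the photon arm it ran from 483.0 over 814.0 to 963.4 CPM in the controls and from 512.6 over 682.6 to 859.2 CPM after photons. The lowest photon library for Postn was a control, photon control 6, and 7 of 8 irradiated libraries were below the control median (log2 fold change -0.28, SE 0.15, adjusted p = 0.2814).

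Dcn (ENSMUSG00000019929, chr10:97479609-97518143, plus strand) ran from 37.51 over 63.4 to 157.8 CPM in the carbon controls and from 44.32 over 61.53 to 163.1 CPM after carbon ions. It ran from 54.06 over 104.0 to 269.2 CPM in photon controls and from 34.14 over 62.0 to 129.7 CPM after photons. Dcn had the widest spread within groups of the 10 genes, an SD of 0.69 on the log2 CPM scale, above that of 83.1% of all genes tested. Its photon fold change of -0.69 on the log2 scale was the most negative of the 10 and did not pass (SE 0.33, adjusted p = 0.2216).

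Lum (ENSMUSG00000036446, chr10:97565128-97572703, plus strand) ran from 42.51 over 79.09 to 124.3 CPM in the carbon controls and from 53.94 over 67.18 to 120.4 CPM after carbon ions. It ran from 40.03 over 92.39 to 173.1 CPM in photon controls and from 30.22 over 80.58 to 101.1 CPM after photons. The within-group SD was 0.61 on the log2 scale, and the photon fold change was -0.32 (SE 0.28, adjusted p = 0.5332).

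The comparison of photon-irradiated tumours with their controls called 2 of the 10 genes, both lower, against 3.81% of all genes tested (781 of 20474) and 2.1% called lower. Both are receptor or surface genes; the contractile and the secreted genes gave 0 of 3 each. At an unadjusted p under 0.05 there were 5 of 10, namely Pdgfra, Pdgfrb, Fap, Thy1 and Dcn, against 21.5% of all genes. All 10 fold changes were negative, as were 50.1% of all genes tested, and their median was -0.36 on the log2 scale beside -0.0006 over all genes. Upper-quartile scaling turned the split of all called genes from 351 higher and 430 lower to 566 higher and 394 lower.

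**Figure D2:**
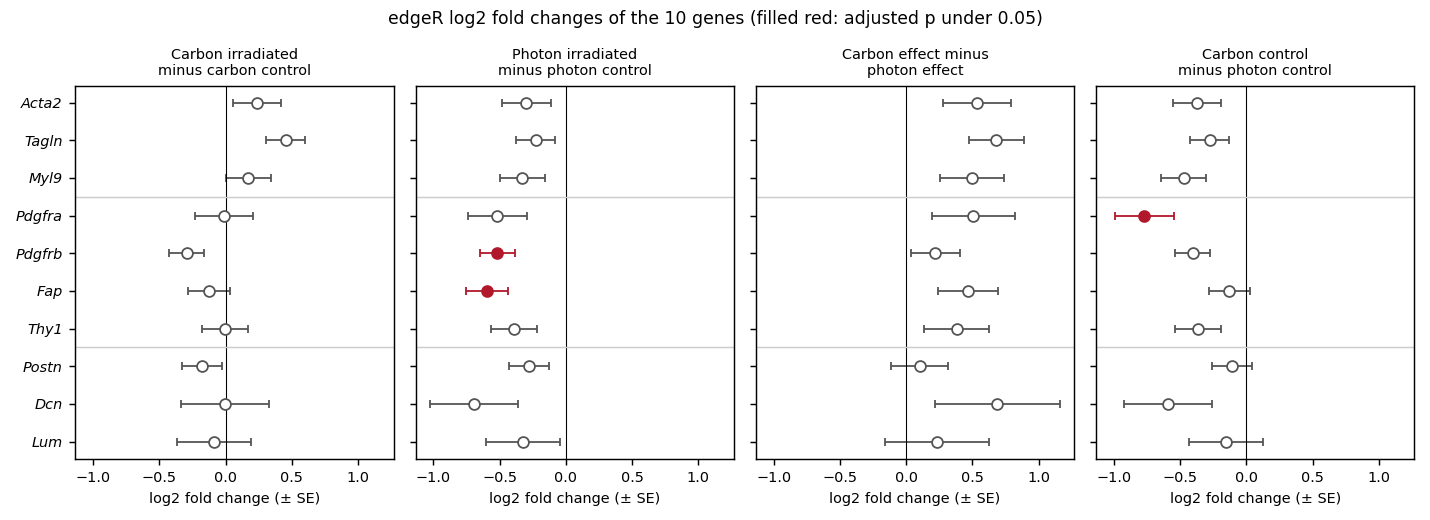
Log2 fold changes of the 10 genes with their standard errors in 4 comparisons; filled red points have an edgeR adjusted p under 0.05, and grey lines part the contractile, receptor and surface, and secreted genes. All 10 points are left of 0 for photons and right of 0 for the difference between the beams, and the contractile genes alone are right of 0 for carbon ions.

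Whether the genes passed the test depended on single libraries, while their fold changes stayed between -0.56 and -0.40 for Pdgfrb and between -0.69 and -0.49 for Fap over the 16 fits that each left out a library. Without photon control 3 the fold change of Pdgfrb was -0.40 (adjusted p = 0.09421) and that of Fap -0.58 (adjusted p = 0.07071), and 0 of 10 genes passed; the number of all genes called fell to 239. Pdgfrb also missed the threshold without photon control 8 or photon-irradiated library 1, 7 or 8, with values between -0.49 and -0.45 and adjusted p up to 0.06919. Fap also missed it without photon control 1, 5 or 8 or photon-irradiated library 1, 2, 3, 6 or 7, with values between -0.58 and -0.49 and adjusted p up to 0.07465. Without photon control 3 the values of Dcn, Thy1 and Lum moved to -0.38, -0.23 and -0.11 on the log2 scale.

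Carbon ions against their own controls called none of the 10 genes and 0.0% of all genes tested by edgeR, while 1177 genes (5.75%) had an unadjusted p under 0.05 and DESeq2 called 17. Of the 10, Tagln and Pdgfrb had an unadjusted p under 0.05, in opposite directions. The contractile genes Acta2, Tagln and Myl9 had log2 fold changes of 0.24, 0.45 and 0.17, and the 7 others lay between -0.29 and -0.0024; the median over the 10 genes was -0.0093 beside 0.0066 over all genes. In the M-titled libraries alone the contractile values were 0.48, 0.65 and 0.38 (adjusted p = 0.5795, 0.446 and 0.6073). In the D-titled libraries alone, 4 controls and 3 irradiated, they were -0.14, 0.17 and -0.09, so the direction of Acta2 and Myl9 did not hold in that subset. Without carbon-irradiated library 8, which had the highest level of its group for all 3, they were 0.10, 0.36 and 0.05.

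A measure that does not depend on how libraries are scaled is the mean log2 CPM of the 3 contractile genes minus that of the 7 others. It ran from -0.94 over a median of -0.27 to 0.15 in the carbon controls and from -0.37 over 0.01 to 0.17 after carbon ions. It ran from -1.03 over -0.22 to 0.10 in photon controls and from -0.71 over -0.21 to 0.16 after photons. All 4 groups overlapped, and the group medians of the photon arm differed by less than the SD within either group (0.39 and 0.29). In the carbon arm the means were -0.59 ± 0.37 (SD, n = 4) for M-titled controls and 0.08 ± 0.14 (SD, n = 5) for M-titled irradiated libraries. With D titles they were -0.17 ± 0.25 (SD, n = 4) and -0.20 ± 0.15 (SD, n = 3).

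**Figure D3:**
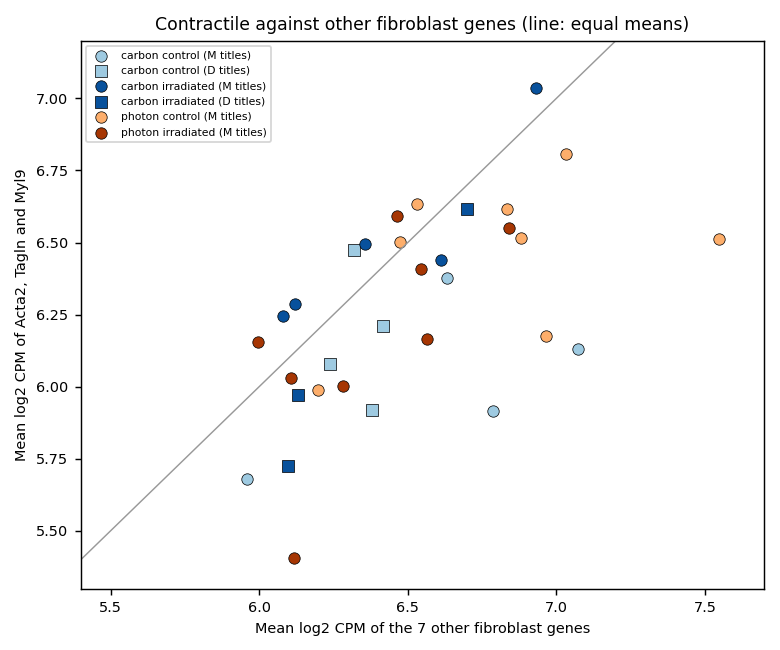
Mean log2 CPM of Acta2, Tagln and Myl9 (vertical axis) against that of the 7 other genes (horizontal axis), 1 point per library; squares are D titles, circles M titles, and the line marks equal means. Photon control 3 lies farthest right. M-titled carbon-irradiated libraries lie near the line, and so do some D-titled ones and some libraries of the other groups.

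The difference between the beams, the carbon fold change minus the photon fold change, called none of the 10 genes against 0.0781% of all genes (16 of 20474). All 10 differences were positive, as were 52.0% of all genes tested, with a median of 0.48 on the log2 scale beside 0.02 over all genes. At an unadjusted p under 0.05 there were 4 of 10, Acta2, Tagln, Myl9 and Fap, against 13.0% of all genes. Tagln had the smallest p, with a difference of 0.68 (SE 0.21, unadjusted p = 0.002534, edgeR adjusted p = 0.1482); limma voom with quality weights gave 0.80 and an adjusted p of 0.02898. Acta2 and Myl9 had differences of 0.54 (SE 0.26) and 0.50 (SE 0.24), with adjusted p = 0.375 and 0.3727. The difference for Fap was 0.47 (SE 0.22, adjusted p = 0.3699) and that for Pdgfrb 0.22 (SE 0.19, adjusted p = 0.6166), so the call of both genes after photons alone did not amount to a tested difference between beams. Over all genes, upper-quartile scaling gave 22 higher and 72 lower calls where the main scaling gave 7 and 9.

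The untreated tumours of the arms were compared because each beam was set against its own controls. The carbon controls were lower than the photon controls for all 10 genes (53.2% of all genes tested were lower), with a median of -0.37 on the log2 scale beside -0.02 over all genes. Pdgfra was called, 1 of 10 against 9.14% of all genes and 4.01% called lower. All 8 carbon controls had a Pdgfra level below the photon control median, and its log2 fold change was -0.77 (SE 0.22, edgeR adjusted p = 0.02565). Pdgfrb and Myl9, also below that median in 8 of 8 libraries, had values of -0.40 (SE 0.13, adjusted p = 0.05047) and -0.47 (SE 0.17, adjusted p = 0.07317). These controls also enter the fold changes of the beams, so the comparisons share libraries.

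Markers of other cells differed between the same controls. Of 10 epithelial markers, Cdh1 (E-cadherin), Cldn4 and Cldn7 (claudins of tight junctions) were higher in the carbon controls, with log2 fold changes of 0.41, 1.39 and 1.19 (adjusted p = 0.04039, 0.01837 and 0.01706), against 5.13% of all genes called higher. Of the 10, 9 values were positive (46.8% of all genes) and the list median was 0.38. All 8 endothelial values were negative, with a median of -0.43 (-0.27 without photon control 3), and Emcn was lower at -0.49 (adjusted p = 0.01865). Of the 5 mesothelial markers tested, Wt1 and Gpm6a were lower and Msln was higher, at -2.01, -1.74 and 0.36 (adjusted p = 0.001671, 0.02444 and 0.04556). No pericyte marker was called, and 7 of the 8 values were negative. The T cell list had 7 of 8 negative values and a median of -0.63, with none called. The adipocyte list had 6 of 6 positive values and a median of 1.37, with none called; without carbon control 5 the median was -1.32. Of the called markers, Cdh1, Emcn and Msln missed the threshold without photon control 3 (0.38, -0.38 and 0.33; adjusted p = 0.1043, 0.07563 and 0.09528), and Cdh1 and Gpm6a missed it without photon control 6 (0.42 and -1.65; adjusted p = 0.07452 and 0.05174). Among M-titled libraries Wt1 alone of them passed (-1.83, adjusted p = 0.02477). These markers are named after their values were seen. The part of these cells in the control values of the fibroblast genes was not tested.

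Among M-titled libraries alone the Pdgfra value between controls was -0.53 (adjusted p = 0.2743), and with the title letter as a term of the model it was -0.71 with an adjusted p of 0.089. Pdgfra also missed the threshold without carbon control 1, 2 or 7 or photon control 3 or 8, with values between -0.73 and -0.63 and adjusted p up to 0.08097. Pdgfrb passed it without carbon control 1 or 5 or photon control 7, with adjusted p between 0.03983 and 0.04379. The arm and the title letter cannot be told apart beyond the M titles, since no photon library had a D title.

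The irradiated groups, compared directly, differed in none of the 10 genes by the test, against 5.08% of all genes (1041 called). Tagln was nearest, higher after carbon ions than after photons in 7 of 8 libraries relative to the photon median (log2 fold change 0.41, SE 0.15, adjusted p = 0.0886), and passed without carbon-irradiated library 1 (0.47, adjusted p = 0.04461). Fap was above the photon-irradiated median in 8 of 8 carbon-irradiated libraries (0.34, SE 0.16, adjusted p = 0.1762). The other genes lay between -0.26 (Pdgfra) and 0.16 (Acta2). Of all called genes 726 were higher and 315 lower, and with upper-quartile scaling 519 and 537.

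Macrophage markers differed between the irradiated groups as well: all 8 values were positive (51.1% of all genes), with a median of 0.56, and Csf1r, C1qa, C1qb and C1qc were higher after carbon ions, 4 of 8 against 3.55% of all genes (0.54, 0.58, 0.63 and 0.65; adjusted p between 0.01933 and 0.03025). The median macrophage sum was 853.6 CPM in carbon-irradiated and 565.2 CPM in photon-irradiated libraries. All 10 epithelial and all 10 skeletal muscle values were positive, with medians of 0.25 and 3.16, and of these 20 Cldn7 alone was called. From the related lists described below, Cxcl1 (a chemokine) was higher (0.65, edgeR adjusted p = 0.03785), 1 of 13 inflammatory fibroblast genes. Tgfbr1 (the type I receptor of transforming growth factor beta) was higher too and Smad3 was lower (0.42 and -0.38, adjusted p = 0.01947 and 0.038). Their list of 13 regulators had 1 called higher and 1 lower, against 3.55% and 1.54% of all genes. The other related lists had none called, and these single genes are not read as results on the lists. Cxcl1, Tgfbr1 and Smad3 passed in 7, 14 and 4 of 16 fits without a library. Of the markers, Csf1r and C1qa passed in 11 such fits, C1qb in 12, Cldn7 in 14 and C1qc in 16, and leaving out photon-irradiated library 1 or 3 ended the call of each but C1qc. With only the irradiated groups in the fit none of these 8 genes passed (adjusted p between 0.05413 and 0.0883), and with voom C1qc alone passed. These genes are named after their values were seen, and the part of other cells in the fibroblast values was not tested.

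Across the 32 libraries, with each group's mean subtracted, the contractile genes went together. The Pearson correlation of log2 CPM was 0.92 between Acta2 and Tagln (Spearman's rho 0.88), 0.82 between Acta2 and Myl9 and 0.72 between Tagln and Myl9. Among the 7 other genes the 21 correlations ran from -0.01 to 0.85. The highest was that of Dcn with Lum (rho 0.87), followed by Pdgfra with Dcn at 0.82 and Pdgfrb with Thy1 at 0.79. Without the 2 libraries farthest from the median, Acta2 with Tagln gave 0.88 and Dcn with Lum 0.81. The correlation of Fap with each of the other 9 genes was at most 0.38, and with Thy1 it was -0.01. Pairs of a contractile and another gene ran from 0.18 (Tagln with Pdgfra) to 0.66 (Myl9 with Pdgfrb). These are descriptions over libraries that share a group, a depth and a piece of tissue, and carry no test.

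**Figure D4:**
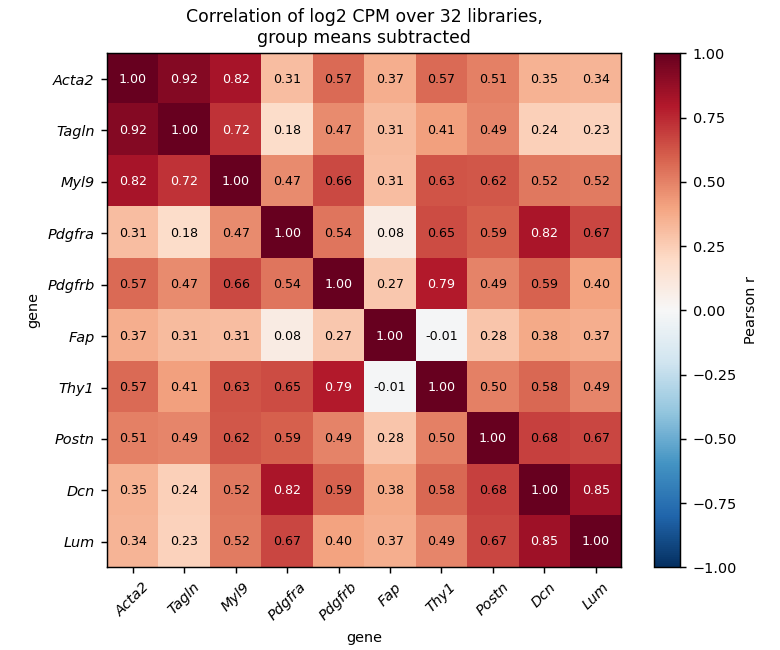
Pearson correlation of log2 CPM between each pair of the 10 genes over 32 libraries after each group's mean was subtracted. The block of Acta2, Tagln and Myl9 lies between 0.72 and 0.92, Pdgfra, Dcn and Lum lie between 0.67 and 0.85, and the lowest value, -0.01, is that of Fap with Thy1.

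The genes outside the set whose levels were most like a member's, by the same correlation among genes with a mean log2 CPM of at least 2, were found for each member. Acta2 was most like Cnn2 (0.89), Tubb6 and Nxn, and Tagln was most like Cnn2 (0.84), Actg2 and Nrp2. Myl9 was most like Tgfb1i1 (0.80), Dcakd and Supt16. Pdgfra was most like Abi3bp (0.91), C1s1 and Maf, and Pdgfrb was most like Mcam (0.84), a marker of pericytes and endothelium, with Pth1r and Rtl8a. Dcn was most like C1ra (0.96), C1s1 and Steap3, the first pair being genes of the complement cascade, and Lum was most like Lrrc17 (0.79), Col6a1 and Col3a1. Fap was most like Tspan6 (0.85), Trabd2b and Mgp, Thy1 most like Adamts2 (0.83), Prrx1 and Efs, and Postn most like Sparc (0.79), P2ry2 and Tgfbr2.

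Other genes of these programmes, in 7 lists, were read in the same fits. None of the 7 lists had a gene called after carbon ions. Of 12 other contractile genes, 10 had a positive fold change after carbon ions, against 51.5% of all genes, with a list median of 0.16 on the log2 scale. At an unadjusted p under 0.05, Cnn1, Cald1, Actg2 and Lmod1 had positive values, 4 of 12 against 3.68% of all genes, and Mylk, the myosin light chain kinase, had a negative one (-0.32, SE 0.10, unadjusted p = 0.002163, adjusted p = 0.4428). Cnn1, a calponin of smooth muscle, had the highest value: its median was 4.57 CPM in the controls and 7.955 CPM after carbon ions (log2 fold change 0.97, SE 0.27, unadjusted p = 0.0009791, edgeR adjusted p = 0.3462). Synpo2, an actin-binding protein, had the lowest at -0.50 (SE 0.37, unadjusted p = 0.1816). The difference between the beams was positive in 11 of the 12, and 10 of the 12 had an unadjusted p under 0.05 (13.0% of all genes), 9 with a positive value and Mylk with a negative one, with none called; the list median was 0.55.

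After photons the median of each of the 7 lists was below 0, although each list held between 1 and 5 genes with a positive value. Of 20 other matrix genes, 3 fell and none rose, against 2.1% of all genes called lower and 1.71% called higher: Ccdc80 (log2 fold change -0.85, SE 0.16, adjusted p = 0.004692), Vcan (versican, a large proteoglycan, -0.73, SE 0.18, adjusted p = 0.02418) and Mfap5 (a microfibril protein, -0.76, SE 0.21, adjusted p = 0.04017). Ccdc80 ran from 100.5 over 134.8 to 178.0 CPM in photon controls and from 35.45 over 81.24 to 100.6 CPM after photons, so that the groups met only at their ends. Ccdc80 passed in all 16 fits without a library, Vcan in 13 and Mfap5 in 5; without photon control 3, Mfap5 was at -0.62 (adjusted p = 0.1149). Of the genes of the 7 lists called after photons, Ccdc80 alone passed without photon control 3. The list median was -0.38, and 3 of the 20 values were positive, up to 0.40 for Fmod, a proteoglycan.

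Of 7 fibrillar and associated collagens, none was called and 6 had negative values, with a median of -0.46; the lowest was Col3a1 at -0.78 (SE 0.26, adjusted p = 0.07927) and the highest Col12a1 at 0.13. Among 13 genes of inflammatory fibroblasts, of which 2 had positive values, Clec3b alone fell (1 of 13 against 2.1% of all genes), from a median of 0.6149 CPM in the photon controls to 0.1653 CPM, with a fitted log2 fold change of -3.73 (SE 1.10, adjusted p = 0.04968). Clec3b reached 21.38 CPM in photon control 3, and without it the value was -1.40 (adjusted p = 0.467). The median of that list was -0.73.

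Of the 6 fibroblast transcription factors tested out of 7, Osr1 (log2 fold change -0.97, SE 0.24, adjusted p = 0.02408) and Prrx2 (-0.32, SE 0.09, adjusted p = 0.04025) fell, 2 of 6 against 2.1% of all genes; Twist2 had a positive value of 0.60. Osr1 ran from 7.179 over 8.94 to 16.39 CPM in photon controls and from 3.74 over 4.375 to 8.058 CPM after photons. Osr1 passed in 13 of 16 fits without a library and Prrx2 in 2, missing without photon control 6 among others (-0.30, adjusted p = 0.06753). The 4 ligands of the platelet-derived growth factor receptors gave no call in either arm and lay between -0.07 and 0.06 after photons.

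Of 13 genes of transforming growth factor beta signalling and serum response factor control, Tgfbr2, the type II receptor of that growth factor, fell (log2 fold change -0.39, SE 0.11, adjusted p = 0.04633), and it passed in 3 of 16 fits without a library. Of the 12 other contractile genes Tpm1, a tropomyosin, fell (-0.40, SE 0.11, adjusted p = 0.04336), and it passed in 4 of 16 such fits. These are single genes of 13 and of 12 beside 2.1% of all genes called lower, and are not read as results on the lists. The median of all 13 regulators was -0.15 (-0.10 without photon control 6) and that of the 12 contractile genes -0.25.

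**Figure D5:**
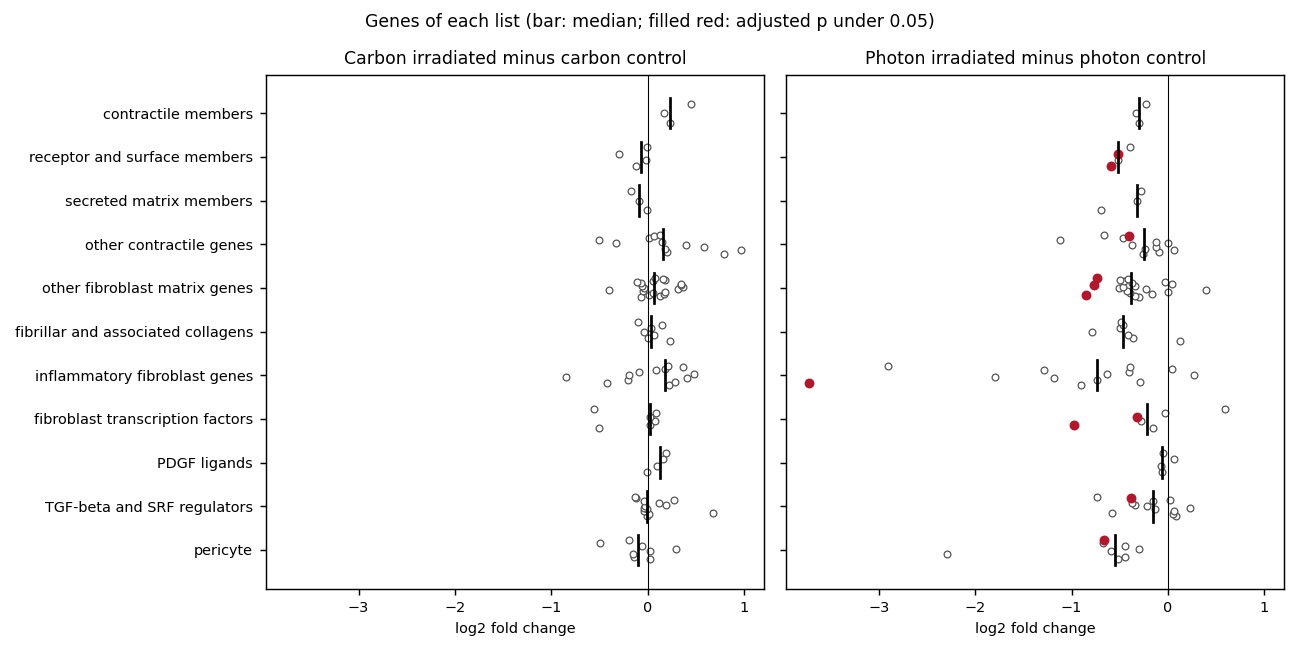
Log2 fold changes of the genes of 3 member groups, 7 related lists and the pericyte list after carbon ions (left) and photons (right); 1 point per gene, bars at the list medians, red for an edgeR adjusted p under 0.05. No gene is red on the left, and all red genes on the right are below 0.

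Between the untreated groups, Ccdc80, Vcan and Osr1 were lower in the carbon controls than in the photon controls (log2 fold changes -0.48, -0.71 and -0.96; adjusted p = 0.04932, 0.01337 and 0.01167). So were 4 of the 7 collagens against 4.01% of all genes called lower, namely Col1a2, Col5a1, Col5a2 and Col6a3 with values between -0.79 and -0.59. Of the 13 regulators, Smad3, a transducer of transforming growth factor beta signals, and the ligands Tgfb1 and Tgfb2 were lower too (-0.51, -0.39 and -0.57; adjusted p = 0.003372, 0.01397 and 0.01415). Fn1 (fibronectin), Smtn and Tgfb1i1 were also called lower, and no gene of the 7 lists was called higher; the collagens, these regulators and these last genes are named after their values were seen. Among M-titled libraries Smad3, Tgfb1, Tgfb2 and Osr1 passed (-0.61, -0.48, -0.64 and -0.97; adjusted p = 0.008555, 0.02312, 0.04267 and 0.04287) and the others did not. With the title letter in the model Smad3 alone of these genes passed (-0.54, adjusted p = 0.01151). Smad3, Tgfb2, Vcan, Fn1, Col6a3 and Osr1 passed in all 16 fits without a library and Tgfb1 and Tgfb1i1 in 15, while Col5a2 passed in 13, Col5a1 in 9, Smtn in 5, Col1a2 in 3 and Ccdc80 in 2. Without photon control 3, Tgfb1, Ccdc80, Smtn, Col1a2, Col5a1 and Col5a2 missed the threshold, with values of -0.34, -0.45, -0.47, -0.49, -0.62 and -0.52 and adjusted p between 0.05567 and 0.1327. Without photon control 6, Smtn and Col1a2 missed it (-0.49 and -0.62; adjusted p = 0.09872 and 0.05197). The photon controls are the reference of these values as well as of the photon fold changes.

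Markers of other cells changed after photons in more than one direction. Values were negative for all 8 pericyte, all 8 endothelial, 7 of 8 macrophage and 7 of 8 T cell markers, the last with a median of -1.22. They were positive for 8 of 10 epithelial markers and, with none called, for 2 of 3 skin keratinocyte markers tested, against 50.1% of all genes below 0. The 5 mesothelial values were mixed, with a median of 0.05 that turned to -0.12 without photon control 3. Called lower, against 2.1% of all genes, were 1 of 8 pericyte, 2 of 8 endothelial, 2 of 8 macrophage, 2 of 8 T cell and 1 of 5 mesothelial markers. Called higher, against 1.71% of all genes, were Cd8a, the only T cell marker with a positive value (1.23, adjusted p = 0.0453), and Msln among the mesothelial ones (0.43, adjusted p = 0.0325). Without photon control 6 the Cd8a value was 1.16 (adjusted p = 0.06264).

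The pericyte marker was Rgs5 (log2 fold change -0.67, SE 0.18, adjusted p = 0.02986), and the list median was -0.55. Without photon control 3 the Rgs5 value was -0.49 (adjusted p = 0.1068), and of the markers of these 5 cell types called after photons only Wt1 passed. The endothelial markers were Tek and Emcn (-0.91 and -0.55; adjusted p = 0.03556 and 0.0203). The endothelial sum ran from 259.5 over 295.3 to 506.6 CPM in photon controls and from 193.6 over 217.7 to 486.3 CPM after photons. The macrophage markers were Csf1r and Mrc1 (-0.54 and -0.77; adjusted p = 0.02602 and 0.0431), and the macrophage sum had medians of 799.4 and 565.2 CPM. Cd3d and Cd2 were the T cell markers and Wt1 the mesothelial marker (-1.69, adjusted p = 0.01402). The epithelial sum had medians of 3632 CPM in photon controls and 3700 CPM after photons, with none of 10 genes called.

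The mean log2 CPM of the endothelial list correlated within groups with that of Dcn at 0.78, Pdgfra at 0.68 and Pdgfrb at 0.67, and with Tagln at 0.28 and Fap at 0.27. Fap had its highest value with the macrophage list, 0.62, followed there by Dcn at 0.59. The adipocyte list gave 0.66 with Dcn, 0.59 with Thy1 and 0.57 with Pdgfra. All 6 adipocyte values were negative after carbon ions (median -3.21, none called), but carbon control 5 held the highest control level of all 6 genes, and without it 3 of 6 were negative and the median was 0.01. After photons 5 of 6 were negative (median -1.43, none called). For the pericyte list the correlations were 0.44, 0.39 and 0.36 for Dcn, Pdgfra and Pdgfrb, and between 0.12 and 0.19 for the contractile genes. Des (desmin, also a gene of skeletal muscle) is one of the 8 pericyte markers, ran from 3.624 to 408.3 CPM and correlated with the muscle list at 0.95. Without Des, a choice made after its values were seen, the pericyte correlations were 0.60 for Pdgfrb, 0.59 for Dcn and 0.39 for Pdgfra, and between 0.16 and 0.25 for the contractile genes. Skeletal muscle, whose summed CPM had a median of 798.5 in photon controls and 9.763 after photons, correlated between -0.09 and 0.02 with the contractile genes. With the 7 other genes it ran from -0.28 for Thy1 to 0.10 for Fap, with Pdgfrb at -0.25. The epithelial list ran from -0.365 for Dcn to 0.13 for Postn, with Pdgfra at -0.35 and Pdgfrb at -0.27. The part of these cells in the fibroblast results was not tested. With the 10 muscle genes left out of the scaling, Pdgfrb and Fap were again called.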

How the data were processed

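RNA of 32 tumours was sequenced as stranded mRNA libraries from RNA with an integrity number above 7.0, per the labels' protocols. The authors deposited estimated counts per gene symbol; the submitters' processing notes name FastQC 0.12.0, Trimmomatic 0.32, RSEM 1.3.3 and mm10, without order or settings. The annotation, aligner and strand setting are not given in the sources used here. Genes that overlap others or share reads with near-identical copies carry that uncertainty.

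Counts were rounded to whole numbers, which changed totals by at most 0.00403%. edgeR 4.0.16 (R 4.3.3) kept 20474 genes with filterByExpr (minimum count 10), scaled libraries by TMM and fitted 1 quasi-likelihood model over all 32 libraries with a coefficient per group. P-values of each of 5 contrasts were adjusted by Benjamini-Hochberg over all genes tested (threshold 0.05). Log2 CPM used a prior count of 2. The script was tested on simulated counts with known changes. Totals of 13891863 to 71645903 counts limit precision mainly for low genes.

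Alternatives were DESeq2 1.42.0, limma 3.58.1 voom with quality weights, other scalings, no filter, fits of 2 groups, M titles only, the title letter as a term, and leaving out each library; D titles only was chosen after seeing the data. Replicate numbers follow accession order and pair nothing. The 10 genes and the 17 other lists of genes were chosen with earlier results of these data known. All 10 genes are named; from other lists, called genes of the beam effects (at most 6 a list and contrast) or else the highest and lowest, the 3 genes most like each member (predicted genes passed over), and defining cell markers. Positions and exon lengths are from GENCODE vM21 (GRCm38) and promoter windows from RefSeq GRCm38.p6. One marker list of another cell type is not reported here.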

Additional observations from a re-analysis of the deposited data

Results flagged for a closer look

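In 3 of the 40 sets of 8 libraries (10 genes in 4 groups), the highest or lowest library lay farther from the nearest of the others, relative to the whole range, than Dixon's 95% critical value of 0.526; chance flags about 1 in 20 such sets. Acta2 reached 370.2 CPM in carbon-irradiated library 8, where the next value was 249.9 CPM (a gap of 0.534 of the range). Tagln and Myl9 were also highest there, at 177.7 and 34.39 CPM. Dcn reached 269.2 CPM in photon control 3, against a next value of 136.8 CPM (0.6155 of the range). Pdgfra, Pdgfrb, Thy1, Postn and Lum were highest of their group in the same library, while Fap was at 23.24 CPM, within its group's range of 18.21 to 25.65 CPM. Postn was at 483.0 CPM in photon control 6, against a next value of 787.8 CPM (0.6345 of the range), and 6 more of the 10 genes were lowest there. Without photon control 6, Pdgfrb and Fap were again called after photons, with log2 fold changes of -0.54 and -0.59.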

How the results depend on the processing

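No paired analysis was possible because the replicate numbers follow accession order and pair no libraries. Over all fits of the 10 genes in 5 comparisons, 1298 values kept their direction and side of the threshold, 24 lost a call, 14 gained a call and 74 changed sign. After photons Pdgfrb passed under all 9 settings that left out no single library and Fap under 6 of 9. Called members numbered 1 without the low-count filter, with only the photon groups in the fit and with M titles only, and 0 to 2 when a library was left out. In the difference between beams voom called 1 member, and leaving out a library called 0. Between controls, DESeq2 and the fit of 2 groups called 2, upper-quartile scaling 3, voom 5, and M titles only and the title-letter term 0; leaving out a library gave 0 to 2. Between irradiated groups M titles only gave 1, and leaving out a library 0 to 1. For carbon ions leaving out a library gave 0.

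All genes called moved to 17 (DESeq2) and 2 (D titles only) for carbon ions; 1518 (DESeq2), 431 (no filter) and 3057 (voom) for photons; 237 (DESeq2), 94 (upper quartile), 4 (no filter), 1 (M titles) and 379 (voom) for the difference; 973 (M titles), 1081 (title letter) and 3165 (voom) between controls; and 1921 (DESeq2), 319 (no filter), 57 (2 groups), 502 (title letter) and 104 (voom) between irradiated groups. Leaving out a library gave 0 to 5 (5 without carbon-irradiated library 2), 239 to 1656 (without photon controls 3 and 2), 5 to 108 (108 without photon control 2), 1178 to 2180 (without photon control 3 and carbon control 5) and 108 to 2159 (without photon-irradiated library 3 and carbon-irradiated library 3). The causes were not tested.

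Signs changed only where the reported value was within about its standard error or in the D-titled subset. For carbon ions, D titles only gave Acta2 -0.1396, Myl9 -0.0926, Pdgfra 0.389, Thy1 0.0214 and Dcn 0.3977; Thy1 was 0.0025 with DESeq2, 0.0026 with DESeq2 size factors and 0.0497 with voom, and Dcn 0.0038 and 0.003 with the first pair. Lum was -0.0876 with voom in the difference. Between controls Postn was 0.0469 with the title letter, and Lum 0.0992 (M titles), 0.0458 (title letter) and 0.0629 (voom). Between irradiated groups Myl9 was -0.0428 (upper quartile) and -0.0307 (voom), Thy1 -0.0485 (upper quartile), Dcn -0.0786 and Lum -0.0247 (voom), and Postn 0.0002 (DESeq2 and its size factors), 0.0016 (2 groups), 0.176 (M titles) and 0.0984 (title letter). Leaving out a library gave, for carbon ions, Pdgfra -0.1659 to 0.1244, Thy1 -0.0624 to 0.0714, Dcn -0.2553 to 0.2378 and Lum -0.211 to 0.0274; between controls, Lum -0.271 to 0.067; and between irradiated groups, Myl9 -0.0848 to 0.1232, Thy1 -0.0544 to 0.1025, Postn -0.0623 to 0.0669, Dcn -0.148 to 0.2798 and Lum -0.0334 to 0.1752. The median of all genes moved by less than 0.1 on the log2 scale under each setting.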
